A study of Mus musculus with 48 samples.

Results

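The MAPK phosphatases and the Sprouty and Spred proteins hold back the MAP kinases that act below the T cell receptor, ERK through Ras and JNK and p38 through other routes, and 9 genes of this group were followed in regulatory T cells (Tregs) and conventional CD4 T cells (Tcons) of mice given IL-2. The 9 genes were Dusp1, Dusp2, Dusp4, Dusp5, Dusp6, Dusp10, Spry1, Spry2 and Spred1, chosen by gene symbol for what they encode, out of 53345 genes in the deposited expression matrices. All 9 were found and passed the filter on low values in both cell types.

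Bulk RNA-seq was performed on spleen cells of female C57BL/6 mice aged 8 to 12 weeks. Every mouse received 500 µg per dose of either an isotype control antibody or an antibody that blocks MHC II, intraperitoneally on the day before IL-2 and on day 0, and then 25 µg of IL-2 subcutaneously on day 0 or PBS. The IL-2 was wild-type human IL-2 (WT) or 1 of its 2 muteins, the slightly attenuated H16R or the far more attenuated 3x, all fused to an effector-less human Fc. Spleens were taken on day 4, Tregs were isolated with a magnetic kit from 4 mice per group (32 libraries), and Tcons were the CD25-negative CD4 T cells of 2 mice per group (16 libraries). MHC II presents the peptides that CD4 T cells recognise, so the comparison of MHC II block with isotype asks what depends on T cell receptor signals, the comparison of each IL-2 with PBS asks what depends on IL-2 given, and the comparison of the 3 forms asks what differs between them. The forms differ in strength and may differ in how long they persist, and these cannot be told apart at 1 dose and 1 day. Tregs were the bound fraction and Tcons the flow-through of a CD25 positive selection, a step meant to leave CD25-negative cells out of the Tregs, and by the study's methods Foxp3 staining of aliquots found most samples to be largely Foxp3+. One library was taken as one mouse, because mice were processed singly and the study's methods give 4 per group. By their number alone 2 isotype WT Treg libraries, called 3a and 3b here, could come from one animal, since both carry the same one, and the values without either of them are named where a call was lost.

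Library totals ran from 18279780 to 51238377 expected counts in Tregs, lowest in isotype PBS (18279780 to 34581246), and from 31311437 to 51953840 in Tcons. The Treg markers (Foxp3, Il2ra, Ikzf2 and Ctla4, 4 genes) summed to 2245 to 4228 CPM (counts scaled to library size) in Treg libraries and 281 to 1331 CPM in Tcon libraries, and none of the 4 was at 0 in any library. The highest Tcon sum, 1331 CPM in isotype WT replicate 2, stood apart from the next, 646 CPM. Among Tregs, block WT replicate 1 and isotype PBS replicate 1 stood apart and held 518 and 544 CPM of 5 B cell markers (median 56.1 CPM over Tregs) and 579 and 109 CPM of 6 myeloid markers (median 24.1 CPM). Member calls that changed when both were left out are given with the values without them. The 3 natural killer (NK) cell markers Ncr1, Klrb1c and Klrk1 summed to 13.7 to 78.5 CPM in Tregs and 58.2 to 234.7 CPM in Tcons and were at 0 in no library.

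Dual-specificity phosphatases (DUSPs) remove the activating phosphates from MAP kinases, and most of them are themselves induced by the kinases that they turn off. Sprouty and Spred proteins act higher up, between the receptor and Raf, and are likewise induced by ERK signalling. In T cells these genes are known as negative feedback on antigen receptor signals, and their transcripts are commonly read as a trace of recent ERK activity.

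In Tregs, 5 of the 9 genes (Dusp1, Dusp4, Dusp5, Dusp10 and Spry1) were lower with MHC II block than with isotype in all 4 treatment groups, and Dusp6 was lower in 3 of 4. Of all tested genes 8.13% were lower with block in PBS, 15.3% in WT, 15.2% in H16R and 26.9% in 3x mice. These shares are for single comparisons, and the share of genes lower in all 4 was not counted. Under IL-2 the members moved in different directions: Dusp5, a nuclear phosphatase of ERK, was higher than in PBS in 6 of 6 comparisons, whereas Spry1 was lower in 6 of 6 and Dusp6 and Dusp10 in 5 of 6. In single comparisons of these 6, 21.9% to 34.7% of all tested genes were higher and 13.7% to 38.3% lower. Dusp4 differed most between the cell types among the 9, at 7.81 times the Tcon level in Tregs of the same mice. Spry2 was lower with block in PBS mice and higher with block under each IL-2, and across libraries its level correlated with the summed level of 3 NK cell genes. In bulk samples fewer expressing cells and less RNA per cell cannot be told apart.

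Per unit of length (FPKM, fragments scaled to library size and transcript length), the members' levels in Tregs spanned a wide range. Dusp1, a nuclear phosphatase of all 3 MAP kinase classes, had a median of 562 FPKM over the 32 Treg libraries (range 311 to 737), above every other member in every library. Dusp2 (median 121, range 90.6 to 145), Dusp5 (117, 70.9 to 154), Dusp4 (74.6, 47.1 to 128) and Dusp10 (64.1, 28.7 to 132) followed with ranges that overlapped one another. Dusp6 (34.2, 17.9 to 53.9) and Spry1 (15.8, 8.45 to 26.5) came next and overlapped in part, and Dusp6 also overlapped Dusp10. Spry2 (3.00, 1.37 to 6.29) and Spred1 (1.88, 1.52 to 2.60) were lowest and overlapped, so that their values rest on the fewest counts. Every Spry1 value was above every Spry2 value.

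**Figure D1:**
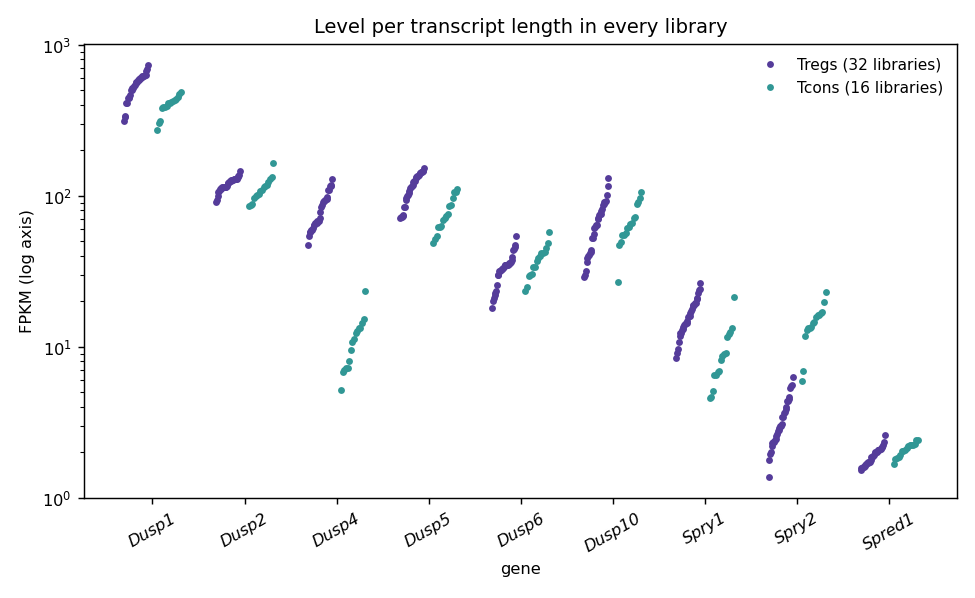
Level of each of the 9 members per gene length (FPKM, log axis) in every Treg library (n = 32) and Tcon library (n = 16). Dusp1 is highest throughout, Dusp4 and Spry1 sit higher in Tregs, Spry2 sits higher in Tcons (median 14.5 FPKM against 3.00 in Tregs), and Dusp6, Dusp10 and Spred1 overlap between the cell types.

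RefSeq (GRCm38.p6) gives a promoter for 8 of the 9 members, and the 250 bases before the transcription start were searched for motifs of the factors that carry MAP kinase, cytokine or growth signals. The motifs were the CRE (TGACGTCA), AP-1 (TGANTCA), ETS (CCGGAAG), STAT (TTCNNNGAA) and EGR (GCGNGGGCG) motifs on both strands, and the CArG box of serum response factor, which was added after the sequences had been seen. Among 32851 RefSeq promoters of the same length, 1.55% held the CRE motif, 6.75% AP-1, 6.91% ETS, 7.02% STAT, 4.70% EGR and 1.47% a CArG box. A CRE match lay 143 bases before the start of Dusp1, an EGR match 98 bases before that of Dusp2, and 2 adjacent CArG boxes 82 and 72 bases before that of Dusp5. The 5 promoters below are those with a match (in capitals) and those of Dusp10 and Spry1, which fell with MHC II block in every treatment group and hold none of these letters in this window. Dusp1 and Dusp5, which hold a match, fell with block in all 4 treatment groups as well, and Dusp2 in 1 of 4. The windows of Dusp6, Spry2 and Spred1 hold no match either and are not printed. They lie at chr17:26508473-26508722 (minus strand), chr2:127335909-127336158 (plus), chr19:53528895-53529144 (plus), chr1:184034131-184034380 (plus) and chr3:37639697-37639946 (plus), each printed 5′ to 3′ on the strand of its gene. The windows of Dusp1, Dusp5 and Dusp10 reach into the annotated gene bodies, which have earlier starts. A match is a stretch of letters and not a shown site of binding.
Dusp1: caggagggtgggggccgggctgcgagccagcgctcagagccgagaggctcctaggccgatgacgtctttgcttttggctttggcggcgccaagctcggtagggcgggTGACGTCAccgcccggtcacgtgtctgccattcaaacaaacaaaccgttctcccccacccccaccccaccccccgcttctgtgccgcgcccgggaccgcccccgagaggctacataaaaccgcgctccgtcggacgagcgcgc
Dusp2: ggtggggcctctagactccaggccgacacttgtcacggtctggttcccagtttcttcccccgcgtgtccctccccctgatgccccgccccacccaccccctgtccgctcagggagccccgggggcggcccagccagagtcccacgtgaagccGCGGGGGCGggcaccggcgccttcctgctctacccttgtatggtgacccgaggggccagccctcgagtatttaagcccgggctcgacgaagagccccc
Dusp5: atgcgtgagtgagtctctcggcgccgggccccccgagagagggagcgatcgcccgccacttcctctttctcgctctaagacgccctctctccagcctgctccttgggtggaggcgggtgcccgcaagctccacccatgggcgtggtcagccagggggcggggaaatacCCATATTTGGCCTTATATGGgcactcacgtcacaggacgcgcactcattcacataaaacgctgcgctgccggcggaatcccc
Dusp10: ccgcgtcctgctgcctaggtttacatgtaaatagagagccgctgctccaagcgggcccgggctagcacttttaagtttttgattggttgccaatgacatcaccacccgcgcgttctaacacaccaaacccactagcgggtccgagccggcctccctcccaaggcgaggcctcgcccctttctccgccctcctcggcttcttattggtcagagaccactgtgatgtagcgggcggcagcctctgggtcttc
Spry1: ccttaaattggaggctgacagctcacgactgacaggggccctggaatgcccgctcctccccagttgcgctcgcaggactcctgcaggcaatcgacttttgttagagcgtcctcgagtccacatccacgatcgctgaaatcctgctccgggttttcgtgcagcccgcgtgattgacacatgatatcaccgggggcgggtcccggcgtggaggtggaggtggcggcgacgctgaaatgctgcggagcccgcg

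Expression was compared between groups with edgeR's quasi-likelihood test over all tested genes (12392 in Tregs), and a gene was called where its Benjamini-Hochberg adjusted p was below 0.1. With MHC II block, 7 members were lower and 0 higher in PBS mice, against 8.13% of all tested genes lower and 6.00% higher. In WT mice 5 were lower and 1 higher (background 15.3% lower and 18.2% higher), in H16R mice 6 lower and 1 higher (15.2% and 15.4%), and in 3x mice 7 lower and 2 higher (26.9% and 27.2%). The median log2 difference over the 9 members was -0.46 in PBS, -0.27 in WT, -0.33 in H16R and -0.58 in 3x mice, where the median over all tested genes lay between -0.007 and 0.011. The members were chosen with earlier results of these data known, so these counts describe them and are no test of the group.

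**Figure D2:**
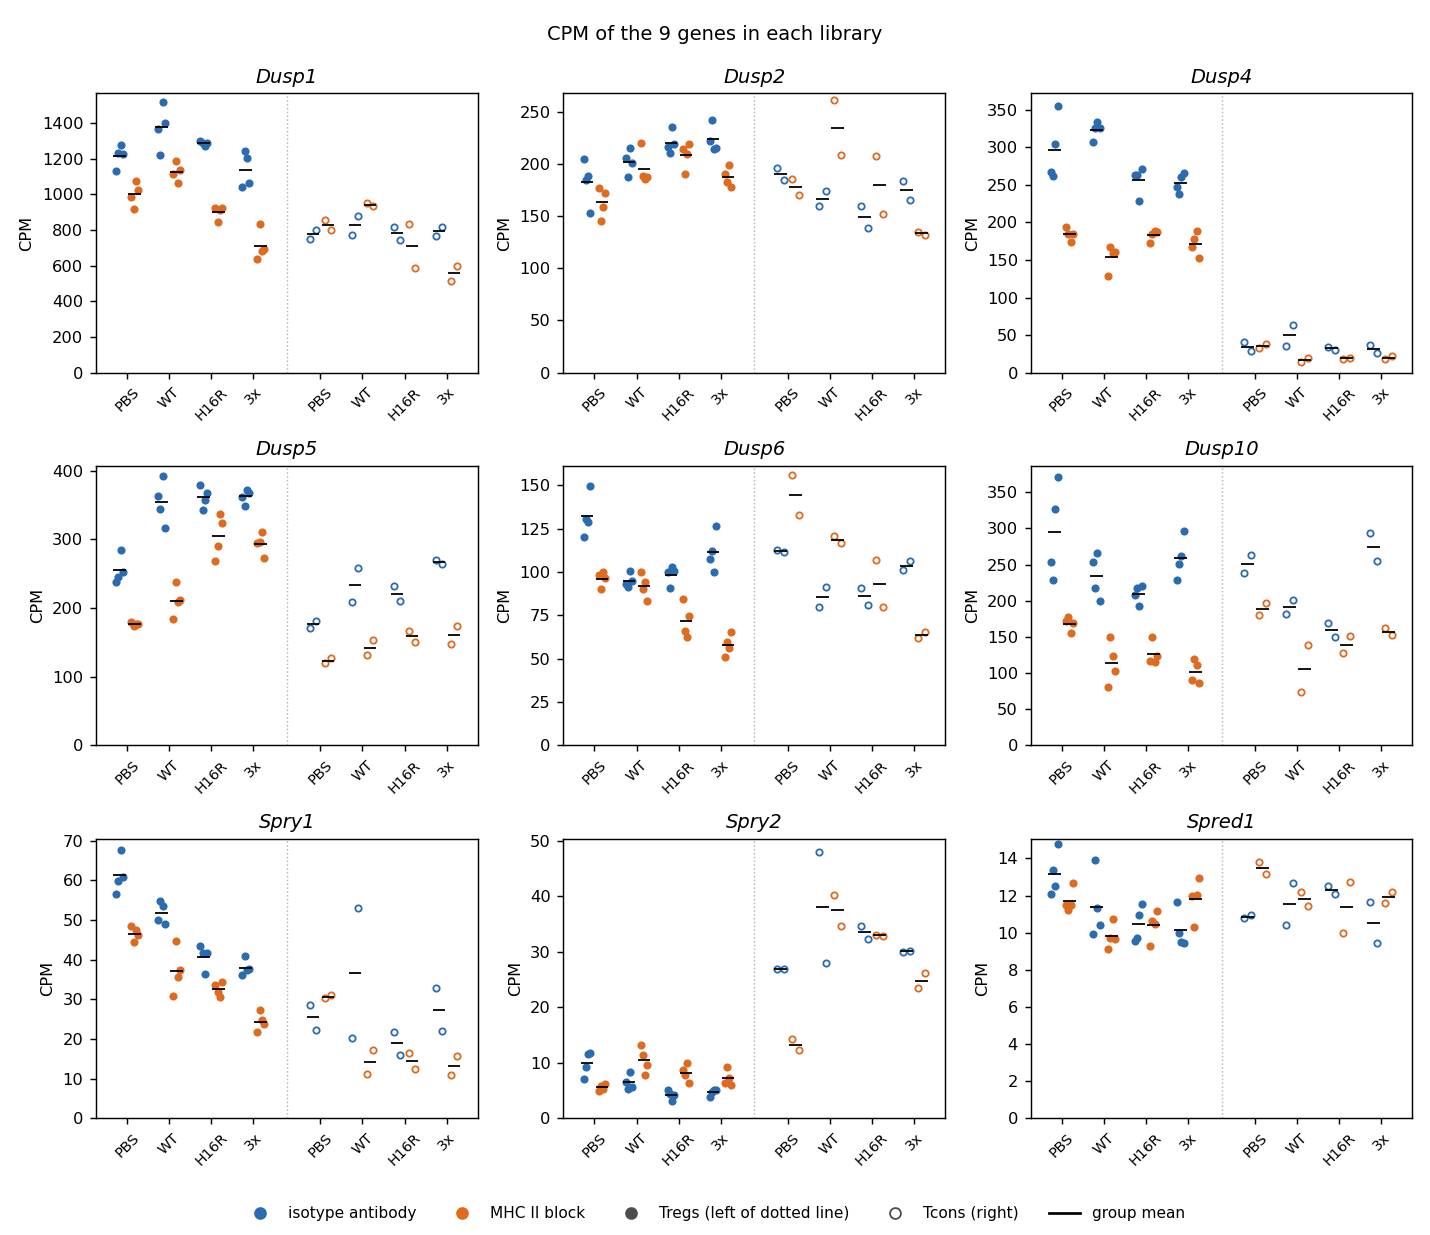
Level of each member in every library (CPM), by IL-2 treatment and antibody, for 4 Treg libraries per group (filled points) and 2 Tcon libraries per group (open points), with the group mean as a line. In Tregs, Dusp1, Dusp4, Dusp5, Dusp10 and Spry1 are lower in all 4 MHC II block groups than in the matching isotype groups, with no overlap between the 4 libraries of each, and Dusp5 is higher in each IL-2 group than in PBS. The share of all tested genes without such overlap was not counted.

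Against PBS, the counts were more even. With isotype antibody, 2 members were higher and 5 lower in WT mice (background 26.0% higher and 26.2% lower), 2 higher and 6 lower in H16R mice (31.4% and 32.8%), and 2 higher and 5 lower in 3x mice (31.3% and 32.3%). Under MHC II block, 4 were higher and 4 lower in WT mice (21.9% and 13.7%), 3 higher and 4 lower in H16R mice (32.7% and 33.8%), and 3 higher and 4 lower in 3x mice (34.7% and 38.3%). The median over the members was -0.21, -0.33 and -0.22 for WT, H16R and 3x with isotype and -0.047, -0.16 and -0.11 with block, and the median over all tested genes lay between -0.037 and 0.022. Each of these sets of 3 comparisons shares its PBS mice. The IL-2 effect itself differed between the antibody arms for 3 members in WT mice (19.7% of all tested genes), 2 in H16R mice (19.1%) and 6 in 3x mice (39.0%).

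**Figure D3:**
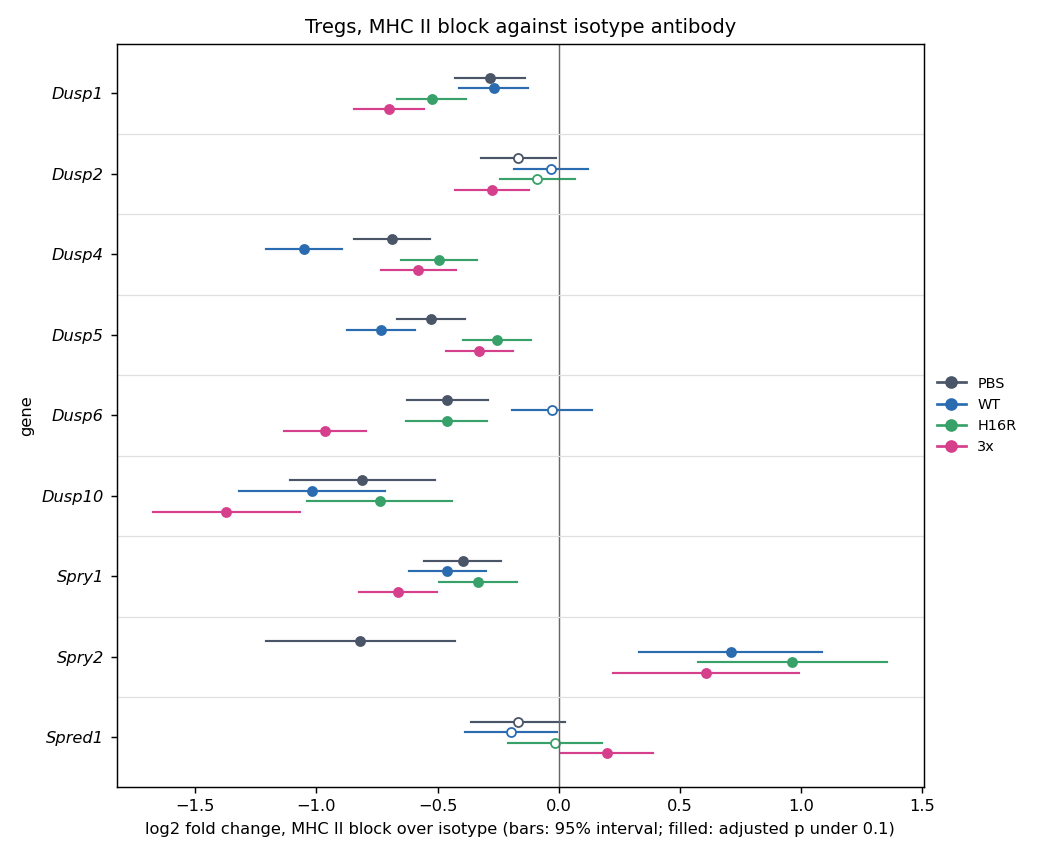
Log2 difference between MHC II block and isotype in Tregs for each member, by treatment (points), with 95% confidence intervals (bars) and filled points where the adjusted p was under 0.1. Dusp1, Dusp4, Dusp5, Dusp10 and Spry1 lie below 0 in all 4 treatments, from -0.25 for Dusp5 in H16R to -1.37 for Dusp10 in 3x mice, whereas Spry2 lies below 0 in PBS (-0.82) and above 0 under each IL-2.

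Dusp4 (GRCm38 chr8:34807297-34819894, plus strand), an inducible nuclear phosphatase of ERK, had one of the largest differences with MHC II block. With isotype antibody the 4 Treg libraries of each group read 267, 262, 304 and 355 CPM in PBS, 307, 326, 334 and 325 in WT, 264, 263, 228 and 272 in H16R and 247, 238, 260.0 and 265 in 3x mice. With MHC II block they read 193, 185, 174 and 184 CPM in PBS, 129, 167, 159 and 160.3 in WT, 172, 185, 188 and 188 in H16R and 167, 178, 189 and 153 in 3x mice. Every block library was lower than every isotype library of the same treatment, and block WT was the lowest group of all 8. The log2 difference was -0.69 ± 0.077 (SE) in PBS, -1.05 ± 0.077 in WT, -0.49 ± 0.076 in H16R and -0.58 ± 0.076 in 3x mice (edgeR adjusted p = 9.64e-07, 2.5e-10, 5.99e-05 and 8.4e-07). Against PBS, isotype WT overlapped its controls (0.12 ± 0.076, adjusted p = 0.197), and isotype H16R (-0.21 ± 0.076) and 3x (-0.22 ± 0.076) were called lower (adjusted p = 0.022 and 0.0144) although single libraries overlapped. These last 2 calls rested on isotype PBS replicate 4, the highest of that group: without it H16R and 3x were not called (adjusted p = 0.188 and 0.138), without isotype H16R replicate 3 H16R was not called (0.105), and without isotype PBS replicate 4 WT became called higher (0.22, adjusted p = 0.0156). Under block, WT was lower than PBS (-0.24 ± 0.076, adjusted p = 0.0184), while H16R (-0.009 ± 0.076, 95% interval -0.17 to 0.15) and 3x (-0.11 ± 0.076, -0.27 to 0.045) were not called. The difference between the arms was called for WT (-0.36, adjusted p = 0.0211) and not for H16R (0.20, 0.234) or 3x (0.11, 0.463). In WT mice the Treg markers were lower with block as well, 4 of 4 (median -0.31, sum 2245 to 3203 CPM against 3670 to 4197 CPM), as were 3 of 3 CD4 T cell markers (median -0.30). In PBS, H16R and 3x mice 0, 1 and 2 of the 4 Treg markers were lower with block and 0, 0 and 1 higher. Against PBS all 4 Treg and all 3 CD4 T cell markers were higher under each IL-2 with isotype and in H16R and 3x mice with block, but 1 and 0 of them in WT mice with block. The part of Treg purity in the values of Dusp4 and the other members was not tested.

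Dusp5 (GRCm38 chr19:53529109-53542431, plus strand), the ERK-specific nuclear phosphatase whose promoter carries the 2 CArG boxes shown above, was higher with every IL-2 and lower with MHC II block. With isotype antibody it read 238, 245, 284 and 252 CPM in PBS, 364, 344, 393 and 317 in WT, 378, 342, 357 and 367 in H16R and 362, 349, 372 and 367 in 3x mice. With MHC II block it read 179, 174, 177 and 177 CPM in PBS, 185, 238, 209 and 211 in WT, 268, 291, 336 and 323 in H16R and 294, 296, 311 and 273 in 3x mice. No IL-2 library of either arm fell into the range of its PBS group, and the 4 block PBS libraries were nearly equal. The log2 difference from PBS was 0.47 ± 0.068 in WT, 0.51 ± 0.068 in H16R and 0.52 ± 0.068 in 3x mice with isotype (adjusted p = 2.45e-06, 3.99e-07 and 2.89e-07). With block it was 0.27 ± 0.068, 0.78 ± 0.068 and 0.72 ± 0.068 (adjusted p = 0.00404, 1.78e-10 and 3.84e-10). Block differed from isotype by -0.53 ± 0.068 in PBS, -0.73 ± 0.068 in WT, -0.25 ± 0.068 in H16R and -0.33 ± 0.068 in 3x mice (adjusted p = 1.02e-05, 1.58e-08, 0.00925 and 0.000306). The IL-2 effect of H16R was larger under block by 0.27 (adjusted p = 0.0627), a call that was lost without any one of isotype PBS replicate 3, isotype H16R replicate 2 and block H16R replicates 3 and 4 (adjusted p between 0.111 and 0.156). For WT and 3x the difference between arms missed the threshold (-0.21 and 0.20, adjusted p = 0.167 and 0.112), and leaving out 1 library brought it past the threshold in 6 and 9 of 32 fits (lowest adjusted p = 0.0557 and 0.0895). The 3x difference was also called without both libraries that stand apart (0.23, adjusted p = 0.0721), with DESeq2 (0.0732), library totals (0.0761) and limma on FPKM (0.0854) and in a fit to the groups of the contrast alone (0.044).

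Dusp1 (GRCm38 chr17:26505590-26562128, minus strand), the immediate early phosphatase induced by stress and mitogens alike, was lower with block in every treatment. Its isotype libraries read 1128, 1233, 1276 and 1228 CPM in PBS, 1365, 1218, 1516 and 1400 in WT, 1298, 1289, 1273 and 1288 in H16R and 1043, 1241, 1203 and 1062 in 3x mice. Its block libraries read 984, 918, 1075 and 1025 CPM in PBS, 1116, 1187, 1066 and 1137 in WT, 922, 842, 911 and 924 in H16R and 634, 831, 679 and 694 in 3x mice. The 3x mice of the block arm were lowest, with 3 of their 4 libraries between 634 and 694 CPM. Block minus isotype was -0.28 ± 0.07 in PBS, -0.27 ± 0.07 in WT, -0.52 ± 0.07 in H16R and -0.70 ± 0.07 in 3x mice (adjusted p = 0.0105, 0.00511, 9.16e-06 and 9.96e-09). Against PBS, Dusp1 was higher in WT mice of both arms (0.18 ± 0.07 and 0.19 ± 0.07, adjusted p = 0.0421 and 0.0426), and the groups overlapped. The first of these calls was lost without isotype PBS replicate 1 or isotype WT replicate 3a (adjusted p 0.117 to 0.167) and without both libraries that stand apart (0.15, adjusted p = 0.119) and with limma on FPKM (0.108), and the second without block PBS replicate 2 or block WT replicate 2 (0.108 to 0.146) and with library totals in place of TMM scaling or limma on FPKM (adjusted p = 0.122 each). Under block, H16R was lower than PBS by a small margin (-0.16 ± 0.07, adjusted p = 0.0555, not called without block PBS replicate 3 or 4 or block H16R replicate 2) and 3x by a larger one (-0.51 ± 0.07, adjusted p = 3.72e-07). In isotype mice, H16R (0.085 ± 0.07) and 3x (-0.086 ± 0.07) were not called, but 3x was called lower with library totals (-0.14, adjusted p = 0.0789) and with limma on FPKM (-0.15, adjusted p = 0.0803). The difference between arms was called for 3x (-0.42, adjusted p = 0.00239) and missed the threshold for H16R (-0.24, 0.107), where 8 of 32 fits without 1 library called it (lowest adjusted p = 0.0528), as did DESeq2 (adjusted p = 0.0869) and a fit to the groups of the contrast alone (0.0322).

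Dusp2 (GRCm38 chr2:127336159-127338376, plus strand), a nuclear phosphatase of ERK and p38 found mainly in leukocytes, was called higher than PBS in 5 of 6 IL-2 comparisons and was called with block in 1 of 4 treatments. The isotype groups ran over 153 to 205 CPM in PBS, 188 to 215 in WT, 210.5 to 236 in H16R and 215 to 242 in 3x mice. The block groups ran over 146 to 177 CPM in PBS, 186 to 220.2 in WT, 190.3 to 219 in H16R and 178 to 199 in 3x mice. In 5 of the 6 IL-2 groups every library was above every PBS library of its arm, isotype WT being the exception. The log2 difference from PBS was 0.27 ± 0.076 in isotype H16R, 0.30 ± 0.076 in isotype 3x, 0.28 ± 0.076 in block WT, 0.35 ± 0.076 in block H16R and 0.19 ± 0.076 in block 3x mice (adjusted p = 0.00321, 0.00141, 0.00699, 0.000277 and 0.0295). The block 3x call was lost without block PBS replicate 2 (adjusted p = 0.101). Isotype WT missed the threshold (0.14 ± 0.076, adjusted p = 0.127) and was called without both libraries that stand apart (0.21, adjusted p = 0.0144) and without any one of isotype PBS 1, isotype WT 2, block WT 1 and block 3x 1, 3 and 4 (adjusted p 0.0276 to 0.0956). Block minus isotype was called in 3x mice only (-0.28 ± 0.075, adjusted p = 0.00397). In PBS, WT and H16R mice it was -0.17, -0.031 and -0.089, with 95% intervals of -0.32 to -0.01, -0.19 to 0.12 and -0.24 to 0.066, and the PBS difference became called without isotype PBS replicate 4 (-0.24, adjusted p = 0.0402).

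Dusp6 (GRCm38 chr10:99263231-99267489, plus strand), the cytoplasmic phosphatase that acts on ERK alone, was highest in isotype PBS and lowest in block 3x mice. Its isotype libraries read 120.5, 131, 129 and 149.6 CPM in PBS, 92.9, 91.3, 100.5 and 94.8 in WT, 100.1, 90.6, 103 and 101 in H16R and 107, 112, 100.3 and 126 in 3x mice. Its block libraries read 98.5, 89.99, 100 and 96.3 CPM in PBS, 99.8, 90.3, 94.3 and 83.2 in WT, 84.4, 66.0, 62.8 and 74.8 in H16R and 50.9, 59.6, 56.5 and 65.2 in 3x mice. The isotype WT and H16R groups lay wholly below isotype PBS, and the block H16R and 3x groups wholly below block PBS. The log2 difference from PBS was -0.48 ± 0.082 in WT, -0.42 ± 0.082 in H16R and -0.24 ± 0.081 in 3x mice with isotype (adjusted p = 2.62e-05, 7.69e-05 and 0.0151). With block it was -0.047 ± 0.082, -0.42 ± 0.082 and -0.74 ± 0.083 (adjusted p = 0.703, 7.76e-05 and 7.95e-09). The difference between arms was positive for WT (0.43, adjusted p = 0.0104), near 0 for H16R (-0.001, 95% interval -0.24 to 0.24) and negative for 3x (-0.50, adjusted p = 0.00187). Against isotype, block was -0.46 ± 0.082 in PBS, -0.46 ± 0.082 in H16R and -0.97 ± 0.082 in 3x mice (adjusted p = 0.000525, 0.000298 and 5.97e-10), and -0.027 ± 0.081 in WT mice, where the groups overlapped (adjusted p = 0.845, 95% interval -0.19 to 0.14).

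Dusp10 (GRCm38 chr1:184013302-184075636, plus strand), the phosphatase of JNK and p38 that spares ERK, had the largest single difference with block, in 3x mice. Its isotype libraries read 254, 228, 327 and 371 CPM in PBS, 253, 218, 266 and 199.8 in WT, 208, 218, 192 and 220.4 in H16R and 228, 251, 262 and 296 in 3x mice. Its block libraries read 171, 177, 155 and 168.7 CPM in PBS, 80.3, 150.2, 123 and 103 in WT, 117, 149.6, 116 and 123 in H16R and 90.1, 119.6, 111 and 85.9 in 3x mice. Every block library was lower than every isotype library of the same treatment, and isotype PBS (254, 228, 327 and 371 CPM) and block WT (80.3, 150.2, 123 and 103 CPM) were spread widely between mice. Block minus isotype was -0.81 ± 0.15 in PBS, -1.02 ± 0.15 in WT, -0.74 ± 0.15 in H16R and -1.37 ± 0.15 in 3x mice, so that 3x mice with block held 0.39 of their isotype level (adjusted p = 0.000605, 1.1e-05, 0.000915 and 3.32e-08). Against PBS with block, all 3 IL-2 groups were lower without overlap (-0.54 ± 0.15 in WT, -0.41 ± 0.15 in H16R and -0.73 ± 0.15 in 3x mice, adjusted p = 0.0066, 0.0164 and 7.6e-05). With isotype, H16R was lower (-0.48 ± 0.15, adjusted p = 0.00546), 3x was not called (-0.17 ± 0.14, 95% interval -0.47 to 0.12), and WT was called (-0.33 ± 0.15, adjusted p = 0.0634) with overlap. The WT call was lost without any one of isotype PBS replicates 3 and 4 and isotype WT replicates 2 and 3b (adjusted p 0.156 to 0.28) and in a fit to these groups alone (0.114). The difference between arms was called for 3x (-0.56, adjusted p = 0.0385).

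**Figure D4:**
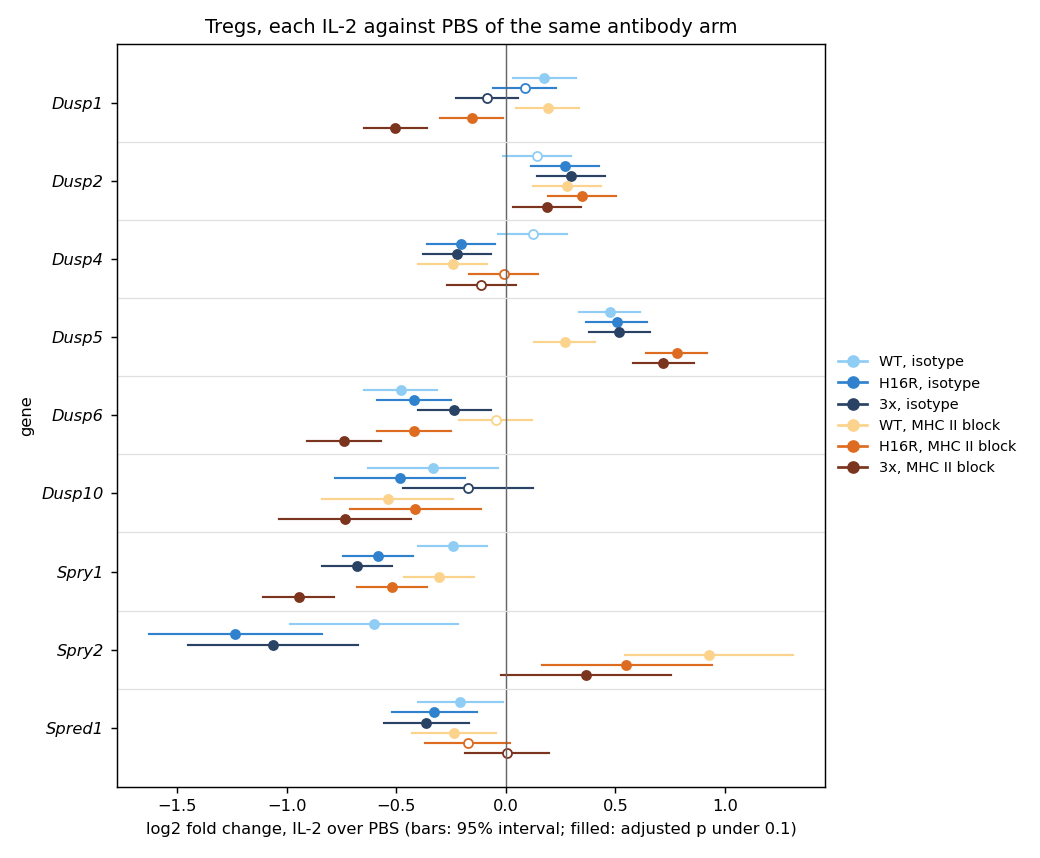
Log2 difference between each IL-2 and PBS in Tregs for each member, with isotype and with MHC II block (points), with 95% confidence intervals (bars) and filled points where the adjusted p was under 0.1. Dusp5 lies above 0 in all 6 comparisons (0.27 to 0.78), Spry1 below 0 in all 6 (-0.24 to -0.95), and Spry2 below 0 with isotype and above 0 with block.

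Spry1 (GRCm38 chr3:37639947-37644598, plus strand), which binds Grb2 and holds back Ras activation, fell with every IL-2 and with block. Its isotype libraries read 56.7, 59.9, 67.6 and 60.8 CPM in PBS, 50.1, 54.7, 53.5 and 49.0 in WT, 43.4, 41.7, 36.3 and 41.8 in H16R and 36.2, 40.9, 37.3 and 37.7 in 3x mice. Its block libraries read 48.4, 44.4, 47.4 and 46.2 CPM in PBS, 30.8, 44.7, 35.8 and 37.5 in WT, 33.6, 31.8, 30.7 and 34.3 in H16R and 21.7, 27.4, 24.7 and 23.7 in 3x mice. The 3x group was lowest in each arm, and except for block WT each IL-2 group lay wholly below its PBS group. The log2 difference from PBS was -0.24 ± 0.077 in WT, -0.58 ± 0.078 in H16R and -0.68 ± 0.078 in 3x mice with isotype (adjusted p = 0.0119, 3.62e-07 and 3.15e-08). With block it was -0.31 ± 0.078, -0.52 ± 0.079 and -0.95 ± 0.079 (adjusted p = 0.00413, 2.39e-06 and 3.57e-11). Block differed from isotype by -0.40 ± 0.078 in PBS, -0.46 ± 0.077 in WT, -0.33 ± 0.079 in H16R and -0.66 ± 0.079 in 3x mice (adjusted p = 0.00152, 6.88e-05, 0.00415 and 1.82e-07). The difference between arms was called for 3x (-0.27, adjusted p = 0.0675), a call lost in 6 of 32 fits that left out 1 library (isotype PBS 1 or 2, isotype 3x 2, block PBS 1 or 3 and block 3x 1, adjusted p 0.106 to 0.14) and with limma on FPKM (adjusted p = 0.125).

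Spry2 (GRCm38 chr14:105891947-105896819, minus strand), the family member that is widely expressed outside T cells, behaved differently from Spry1. Its isotype libraries read 7.11, 9.20, 11.6 and 11.8 CPM in PBS, 6.59, 5.25, 8.41 and 5.69 in WT, 5.09, 4.36, 3.05 and 4.24 in H16R and 3.85, 4.75, 5.08 and 5.03 in 3x mice. Its block libraries read 4.97, 5.83, 5.32 and 6.22 CPM in PBS, 13.2, 11.4, 7.81 and 9.59 in WT, 8.68, 7.79, 10.0 and 6.29 in H16R and 6.403, 9.31, 7.28 and 6.00 in 3x mice. PBS was the highest group with isotype and the lowest with block. The log2 difference from PBS was -0.60 ± 0.19 in WT, -1.23 ± 0.19 in H16R and -1.06 ± 0.19 in 3x mice with isotype (adjusted p = 0.01, 3.89e-06 and 2.74e-05) and 0.93 ± 0.19, 0.55 ± 0.19 and 0.37 ± 0.19 with block (adjusted p = 0.000562, 0.0138 and 0.0866). The block 3x call was lost without any one of block PBS replicates 1 and 3 and block 3x replicates 2 and 3 (adjusted p 0.109 to 0.312), with library totals in place of TMM scaling (adjusted p = 0.121) and with limma on FPKM (0.14). Block minus isotype was -0.82 ± 0.19 in PBS mice but 0.71 ± 0.18 in WT, 0.97 ± 0.19 in H16R and 0.61 ± 0.19 in 3x mice (adjusted p = 0.00669, 0.00489, 0.000915 and 0.00927). The difference between arms was called for WT (1.53), H16R (1.78) and 3x (1.43), with adjusted p = 0.000319, 0.00013 and 0.00029.

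The summed level of the NK cell markers ordered the Treg groups much as Spry2 did, but the 3 markers did not all differ in the same way. The sum of Ncr1, Klrb1c and Klrk1 was 32.0 to 60.9 CPM in isotype PBS, 24.9 to 32.2 in isotype WT, 13.7 to 21.0 in isotype H16R and 15.9 to 27.9 in isotype 3x Tregs. With block it was 31.4 to 40.6 CPM in PBS, 56.1 to 78.5 in WT, 32.8 to 53.8 in H16R and 36.8 to 48.4 in 3x Tregs. On the log2 scale and in the order WT, H16R and 3x, Klrk1, an NK cell receptor also found on some T cells, differed from PBS by -0.59, -1.44 and -1.10 with isotype and by 1.11, 0.56 and 0.54 with block. Ncr1, an activating NK receptor, differed by -0.85, -1.55 and -1.68 with isotype and by 1.43, 1.06 and 0.95 with block. Klrb1c, which encodes NK1.1, was lower than PBS with isotype (-0.99, -1.65 and -1.19) but differed from Spry2 under block, where it was not called in WT (0.32, adjusted p = 0.245) and lower in H16R (-0.52, 0.0301) and 3x mice (-0.77, 0.00155). Block minus isotype under the 3 IL-2 forms was 1.16, 1.46 and 1.11 for Klrk1, 1.54, 1.87 and 1.89 for Ncr1 and 1.12, 0.96 and 0.23 for Klrb1c, and the last Klrb1c value was not called (adjusted p = 0.364). In PBS mice it was -0.53, -0.74 and -0.18 for the same genes (adjusted p = 0.0532, 0.0221 and 0.632). Across the 32 Treg libraries log2(CPM + 1) of Spry2 and of the NK sum had Pearson r = 0.896 (Spearman rho = 0.893), and r = 0.712 after the group means were removed, as a description of libraries that share groups and depth. What part NK cells had in the Spry2 values was not tested.

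Markers of other cell types also differed between these Treg groups. With isotype, all 5 B cell markers and all 4 dendritic cell markers were lower than PBS under each IL-2, with medians of -2.18, -3.69 and -3.83 for B cells and -1.62, -2.78 and -2.15 for dendritic cells in WT, H16R and 3x mice. Of 3 plasma cell markers 2, 3 and 3 were lower, and of 6 myeloid markers 4, 5 and 5 were lower and 0, 1 and 1 higher. With block, higher than PBS were 3, 0 and 0 B cell, 3, 0 and 0 plasma cell, 6, 1 and 1 myeloid and 1, 1 and 1 dendritic cell markers, and lower were 0, 0 and 0 B cell, 0, 1 and 2 plasma cell, 0, 0 and 0 myeloid and 0, 3 and 3 dendritic cell markers. Block against isotype in WT mice had all 5 B cell, 3 plasma cell, 6 myeloid and 4 dendritic cell markers higher (medians 2.13, 1.502, 4.33 and 2.19). In the same order 1, 3, 5 and 2 were higher with block in H16R and 3, 3, 2 and 3 in 3x mice, with 0 lower. Both CD8 T cell markers were higher than PBS under block with each IL-2 (medians 2.14, 1.19 and 1.83), and with isotype 0, 1 and 1 of them were lower. Of 3 tested erythroid markers 3, 0 and 0 were higher than PBS under block (medians 2.62, 1.13 and 0.54) and 0, 0 and 1 lower with isotype. Higher with block than with isotype were 0, 1, 1 and 2 CD8 T cell and 0, 2, 0 and 3 erythroid markers in PBS, WT, H16R and 3x mice, with 0 lower. For the B cell, plasma cell, myeloid and dendritic cell markers, in PBS mice 5, 0, 1 and 0 were lower with block and 0 higher. The part of these cells in the values of Spry2 and the other members was not tested.

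**Figure D5:**
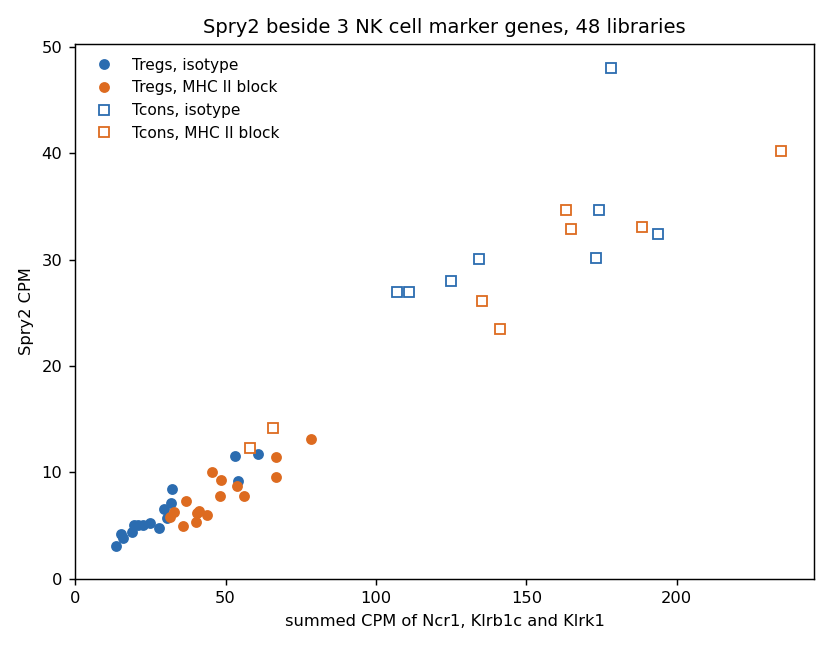
Spry2 (CPM) against the summed CPM of the NK cell markers Ncr1, Klrb1c and Klrk1 in every library, both axes linear from 0, by cell type and antibody. Libraries with a higher NK sum have more Spry2 in Tregs (r = 0.896, n = 32) and in Tcons (r = 0.916, n = 16). Both r are of log2(CPM + 1), and with the group means removed they were 0.712 and 0.705.

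Spred1 (GRCm38 chr2:117121374-117182279, plus strand), which keeps Ras inactive by recruiting the RasGAP neurofibromin to the membrane, was low and varied little. The isotype groups ran over 12.1 to 14.8 CPM in PBS, 9.96 to 13.9 in WT, 9.57 to 11.5 in H16R and 9.45 to 11.7 in 3x mice. The block groups ran over 11.2 to 12.7 CPM in PBS, 9.12 to 10.8 in WT, 9.28 to 11.2 in H16R and 10.3 to 13.0 in 3x mice. It was lower than PBS in isotype H16R (-0.33 ± 0.095, adjusted p = 0.00421) and isotype 3x mice (-0.36 ± 0.094, 0.00173), both without overlap. It was also called lower than PBS in isotype WT (-0.21 ± 0.094, adjusted p = 0.0745) and block WT mice (-0.24 ± 0.094, 0.0593), and higher with block than with isotype in 3x mice (0.20 ± 0.093, 0.0791). The isotype WT call was lost in 8 of 32 fits without 1 library (isotype PBS 2 or 4, isotype WT 1, 3a or 3b, block 3x 1, 3 or 4, adjusted p 0.104 to 0.245) and in a fit to these groups alone (0.208). The block WT call was lost without block PBS 4 or block WT 1, 2 or 4 (0.107 to 0.162) and without both libraries that stand apart (0.121), and the 3x call without isotype 3x 2, 3 or 4 or block 3x 1, 3 or 4 (0.139 to 0.249). Block H16R lay wholly below block PBS but missed the threshold (-0.18 ± 0.094, adjusted p = 0.111), and 4 of 32 fits without 1 library called it (0.0904 to 0.0995), as did library totals (-0.23, adjusted p = 0.0364) and a fit to these groups alone (0.0669). In WT mice block minus isotype was -0.20 ± 0.093 (adjusted p = 0.119), and 8 of 32 such fits called it (0.055 to 0.0939). The difference between arms was called for 3x (0.37, adjusted p = 0.0369).

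The 3 forms of IL-2 were compared with each other at the same 25 µg dose and the same day, as 3 pairs in each arm and 6 in all, with p-values adjusted over all tested genes of each pair. With isotype, 3 members differed between H16R and WT (18.6% of all tested genes), 5 between 3x and WT (34.7%) and 0 between 3x and H16R (11.5%). For that last pair edgeR gave an unadjusted p under 0.05 for 3 members (Dusp1, Dusp6 and Dusp10), DESeq2 called 1 (Dusp1, adjusted p = 0.0914), and a fit to these groups alone called all 3 (0.0649, 0.0895 and 0.0194). With block, 6 members differed between H16R and WT (57.5%), 6 between 3x and WT (68.7%) and 3 between 3x and H16R (25.2%). Under block, the 6 of 9 members called in each pair with WT were near the share of all genes.

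Spry1 was lower in both muteins than in WT in both arms, Dusp1 was lower in both muteins under block but in 3x alone with isotype, and under block both genes were lower in 3x than in H16R. Spry1 differed from WT by -0.34 ± 0.077 in H16R and -0.44 ± 0.077 in 3x mice with isotype (adjusted p = 0.00475 and 0.000131) and by -0.21 ± 0.079 and -0.64 ± 0.079 with block (0.0264 and 1.29e-07), and the block H16R difference was lost without block WT replicate 2 (-0.12, adjusted p = 0.188) and in a fit to these groups alone (-0.20, 0.12). Between 3x and H16R it was -0.43 ± 0.08 with block (adjusted p = 0.000547) and not called with isotype (95% interval -0.25 to 0.064). Dusp1 with block was -0.35 ± 0.07 in H16R and -0.70 ± 0.07 in 3x against WT, and -0.35 ± 0.07 in 3x against H16R (adjusted p = 0.000253, 4.52e-09 and 0.00098), with no overlap between the 3 groups. With isotype 3x was -0.26 ± 0.07 against WT (adjusted p = 0.0061), and H16R was not called (95% interval -0.23 to 0.053). Dusp6 with block had the same order (-0.37 ± 0.082, -0.69 ± 0.082 and -0.32 ± 0.083, adjusted p = 0.000569, 6.52e-08 and 0.00758), but with isotype 3x was higher than WT (0.25 ± 0.081, adjusted p = 0.0245), a call lost without isotype 3x replicate 4 (0.18, adjusted p = 0.13).

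Dusp5 separated the muteins from WT under block only. With block H16R was 0.51 ± 0.068 and 3x 0.45 ± 0.068 above WT (adjusted p = 1.37e-06 and 2.67e-06) and the 2 muteins were not called apart (95% interval -0.20 to 0.079). With isotype none of the 3 pairs was called, and the 95% intervals were -0.11 to 0.17 for H16R against WT, -0.094 to 0.18 for 3x against WT and -0.13 to 0.15 for 3x against H16R. Whether these pair differences differ between the arms was not tested. Dusp4 was lower in both muteins than in WT with isotype (-0.33 ± 0.076 and -0.34 ± 0.076, adjusted p = 0.00574 and 0.00126) and higher in H16R than in WT with block (0.23 ± 0.076, 0.0133), whereas 3x with block was not called (95% interval -0.025 to 0.29) but was in 7 of 32 fits without 1 library (adjusted p 0.0265 to 0.0937) and with DESeq2 (0.0781). The muteins were not called apart for Dusp4 in either arm (95% intervals -0.17 to 0.14 with isotype and -0.26 to 0.054 with block). Dusp10 was called in no pair, and its intervals were wide: -0.45 to 0.14, -0.14 to 0.46 and 0.017 to 0.61 with isotype and -0.17 to 0.43, -0.49 to 0.11 and -0.62 to -0.021 with block, in the order H16R against WT, 3x against WT and 3x against H16R. Without both libraries that stand apart, Dusp10 was called lower in block 3x than in WT (-0.32, adjusted p = 0.047) and than in H16R (-0.32, 0.0773), and without block WT replicate 1 alone likewise (adjusted p = 0.051 and at most 0.0957), and a fit to these groups alone called the second (0.0789). The isotype difference between 3x and H16R, where the groups did not overlap (0.31), was called in a fit to these groups alone (adjusted p = 0.0194). Dusp2 was called in no pair, and the pairs nearest to the threshold were 3x against H16R under block (95% interval -0.31 to -0.005) and 3x against WT with isotype (0.001 to 0.31), which became called without 1 library (lowest adjusted p = 0.0836 and 0.08). Without both libraries that stand apart Dusp2 was called in these pairs (-0.16 and 0.15, adjusted p = 0.0711 and 0.0619) and in H16R against WT under block (0.14, adjusted p = 0.0891), and fits to the groups of each contrast alone also called the first 2 (adjusted p = 0.0581 and 0.0559). Spred1 was called in 1 pair, block 3x against WT (0.24 ± 0.093, adjusted p = 0.0266).

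Spry2 was lower in H16R (-0.63 ± 0.19) and 3x (-0.46 ± 0.19) than in WT with isotype (adjusted p = 0.0285 and 0.0685) and with block (-0.38 ± 0.18 and -0.56 ± 0.18, 0.0896 and 0.00988). In the same pairs Klrk1 differed by -0.86 and -0.51 with isotype and by -0.55 and -0.57 with block (adjusted p = 0.00239, 0.0285, 0.0078 and 0.00454). Ncr1 differed by -0.70 and -0.83 with isotype and by -0.37 and -0.48 with block (0.0272, 0.0039, 0.108 and 0.0317), and Klrb1c by -0.67, -0.20, -0.83 and -1.08 (0.0358, 0.51, 0.00145 and 4.75e-05). The part of NK cells was not tested. The isotype H16R call was lost without isotype WT replicate 3a or isotype H16R replicate 3 (adjusted p 0.118 to 0.155) and the isotype 3x call without isotype WT replicate 1 or 3a or isotype 3x replicate 1 (0.104 to 0.264). The block H16R call was lost in 16 of 32 fits that left out 1 library (-0.41 to -0.24, adjusted p 0.101 to 0.299) and without both libraries that stand apart (-0.24, adjusted p = 0.264) and in a fit to these groups alone (0.146).

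Tregs and Tcons of the same 16 mice were compared within mice, by fitting each mouse as a block. Of the 9 members 5 were higher and 1 lower in Tregs, where 75.9% of 12844 tested genes were called in either direction. Dusp4 was higher in 16 of 16 mice by 2.26 to 3.25 on the log2 scale (fitted 2.97 ± 0.081, adjusted p = 1.07e-15). In isotype PBS it read 267, 262, 304 and 355 CPM in the 4 Treg and 40.7 and 28.6 CPM in the 2 Tcon libraries. Spry1 (0.97 ± 0.10), Dusp5 (0.64 ± 0.047) and Dusp1 (0.48 ± 0.051) were each higher in 16 of 16 mice, and Dusp2 (0.21 ± 0.067) in 11 of 16 (adjusted p = 1.21e-07, 8.35e-10, 1.29e-07 and 0.0105). Spry2 was lower in 16 of 16 mice (-2.06 ± 0.14, adjusted p = 2.78e-10), and the NK sum was also lower in Tregs (13.7 to 78.5 CPM against 58.2 to 234.7 CPM in Tcons), whose part was not tested. Dusp6 (-0.24 to 0.034), Dusp10 (-0.17 to 0.16) and Spred1 (-0.21 to 0.012) were not called, given here with their 95% intervals. For Dusp6 the mice of the 2 antibody arms differed in sign: Tregs were lower than Tcons in every block mouse (log2 -0.66 to -0.13) and higher in every isotype mouse but replicate 2 of WT (-0.002, the others up to 0.23), a difference between arms that was not tested. With library totals in place of TMM scaling Dusp6 and Spred1 became called lower in Tregs (-0.18 and -0.17, adjusted p = 0.0186 and 0.0101), which gives 5 higher and 3 lower, and limma on FPKM also called both lower (0.0165 and 0.0113) and DESeq2 Spred1 (0.0689).

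The gap between Tregs and Tcons differed between IL-2 and PBS mice for 3 members (37.0% of all tested genes): it was more positive in IL-2 mice for Dusp2 (0.35 ± 0.13) and Dusp4 (0.38 ± 0.15) and more negative for Spry2 (-0.71 ± 0.28), with adjusted p = 0.0598, 0.071 and 0.0677. These values average the arms. The log2 gap of Dusp4 was 2.71 and 3.19 in isotype PBS mice and 2.37 to 3.18 in isotype IL-2 mice. With block it was 2.54 and 2.26 in PBS mice and 3.055 to 3.252 in IL-2 mice. For Dusp2 it was -0.23 to 0.066 in PBS mice and -0.25 and -0.14 in block WT mice. Differences between the arms were not tested. Each of the 3 calls was lost without certain single mice, Dusp2 and Spry2 without isotype PBS replicate 2 or either block PBS mouse, and Dusp4 without isotype PBS replicate 1, either block PBS mouse or either block 3x mouse (adjusted p 0.103 to 0.297 over these fits). With library totals Dusp2 and Dusp4 were not called (adjusted p = 0.102 and 0.123), nor with limma on FPKM (0.103 and 0.135), so that 0 were higher and 1 lower, and the fit without the mouse as a block did not call Dusp4 (0.38, adjusted p = 0.112). For Spry2 the NK sum in Tcons ranged from 58.1 to 65.6 CPM in block PBS to 163 to 235 CPM in block WT mice, and its part was not tested.

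Within Tcons, with 2 mice per group and the antibody as an additive term, 3 members differed between WT and PBS (27.2% of 12526 tested genes), 4 between H16R and PBS (31.1%), 2 between 3x and PBS (9.88%) and 4 between block and isotype (28.9%). Dusp5 read 172 and 181 CPM in isotype PBS, 209 and 258 in WT, 232 and 209.5 in H16R and 269.7 and 264 in 3x Tcons. With block it read 119.5 and 126 CPM in PBS, 131 and 153 in WT, 167 and 150.3 in H16R and 148 and 174 in 3x Tcons. It was thus the member that rose with each IL-2 in Tcons as well (0.31 ± 0.085, 0.35 ± 0.085 and 0.49 ± 0.085, adjusted p = 0.0276, 0.014 and 0.00768) and fell with block (-0.61 ± 0.06, adjusted p = 0.000119).

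Dusp10 fell with WT (-0.61 ± 0.17) and H16R (-0.54 ± 0.17) and with block (-0.57 ± 0.12) in Tcons (adjusted p = 0.0322, 0.0425 and 0.0136), and the H16R call was lost without either isotype H16R library or block PBS replicate 2 (adjusted p 0.108 to 0.122). Dusp6 was called lower with H16R (-0.52 ± 0.19, adjusted p = 0.0704) and 3x (-0.61 ± 0.19, 0.0862), calls lost in 5 and 9 of 16 fits that left out 1 library (adjusted p 0.125 to 0.182 and 0.101 to 0.239). For 3x this value averages unlike arms: Dusp6 read 113 and 112 CPM in isotype PBS and 101 and 106 CPM in isotype 3x Tcons, but 156 and 133 CPM in block PBS and 61.9 and 65.2 CPM in block 3x Tcons, and the difference between the arms was not tested. Spry2 rose with WT (0.96 ± 0.20) and H16R (0.78 ± 0.20, adjusted p = 0.00814 and 0.0166), as did Klrk1 (1.19 and 1.17, adjusted p = 0.00241 and 0.00179) and Klrb1c (0.77 and 0.91, 0.0285 and 0.0107), while Ncr1 was not called (1.45 and 1.33, 0.138 and 0.159), and the part of NK cells was not tested. The Spry2 values average unlike arms. With isotype Spry2 read 26.96 and 26.97 CPM in PBS, 48.0 and 28.0 in WT and 34.65 and 32.4 in H16R Tcons. With block it read 14.2 and 12.3 CPM in PBS, 40.3 and 34.7 in WT and 33.1 and 32.9 in H16R Tcons. Whether the arms differ was not tested. Dusp4 was lower with block (-0.73 ± 0.20, adjusted p = 0.0304), and so was Spry1 (-0.64 ± 0.25, 0.0898), the latter call being lost in 9 of 16 fits that left out 1 library (adjusted p 0.118 to 0.18) and with limma on FPKM (0.106). These values average the treatments, and PBS Tcons did not show the difference. Dusp4 was 40.7 and 28.6 CPM with isotype and 33.2 and 38.6 CPM with block in PBS Tcons, and Spry1 was 28.6 and 22.3 CPM with isotype and 30.2 and 31.2 CPM with block. Under block Dusp4 read 13.8 and 19.9 CPM in WT, 18.2 and 19.4 in H16R and 18.3 and 21.4 in 3x Tcons, each library below the isotype libraries of its treatment (36.0 and 63.0, 34.0 and 30.1 and 36.1 and 26.1 CPM). Whether the block difference depends on IL-2 was not tested in Tcons. Both genes were highest in isotype WT replicate 2 (63.0 and 53.03 CPM, against 36.0 and 20.4 CPM in replicate 1), the Tcon library with the most Treg marker RNA. Over the 16 Tcon libraries the Treg marker sum correlated with Dusp4 at r = 0.797 (0.693 without that library) and with Spry1 at r = 0.701 (0.479 without it). Without it Dusp4 and Spry1 became called lower in WT than in PBS Tcons (-0.61 and -0.77, adjusted p = 0.0519 and 0.0485), and the Spry1 block call was among those lost. The part of Treg RNA in these Tcon values was not tested. Under other fits some Tcon results became called: DESeq2 called Dusp4 (-0.59, adjusted p = 0.0924) and Spry1 (-0.84, 0.0502) lower with H16R and Spry2 lower with block (-0.34, 0.0611). A fit of 8 group means, in place of additive terms, called these 3 as well (adjusted p = 0.0515, 0.0534 and 0.0197), and also Dusp6 lower with WT (-0.33, 0.0152), Dusp1 lower with 3x (-0.27, 0.0914) and Spry2 higher with 3x (0.53, 0.027). The Spry2 block value averages unlike treatments. Its mean was 27.0 CPM with isotype and 13.3 CPM with block in PBS Tcons. Under IL-2 the same 2 means were 38.0 and 37.5 CPM in WT, 33.5 and 33.0 in H16R and 30.1 and 24.8 in 3x Tcons.

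Markers of other cells also differed between the Tcon groups. The 5 B cell markers summed to 763 to 830.0 CPM in isotype PBS, 179.7 to 294 in WT, 132 to 179 in H16R and 308 to 384 in 3x Tcons, and with block to 116 to 125, 224 to 277, 126 to 238 and 101 to 137 CPM. The 6 myeloid markers summed to 117 to 124, 52.3 to 81.5, 31.7 to 33.3 and 38.7 to 62.6 CPM with isotype and to 34.5 to 34.6, 574 to 664, 136 to 149 and 190.0 to 203 CPM with block, highest in block WT. With block 4 of 5 B cell markers were lower and 4 of 6 myeloid markers higher, and all 3 plasma cell markers were higher than PBS with WT and H16R. The 3 tested erythroid markers were likewise higher with WT and H16R (medians 4.29 and 2.87). The part of these cells in the Tcon values of the members was not tested.

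Counts for related gene lists are read beside the share of all tested genes called in the same comparison. With block against isotype that share was 8.13% lower and 6.00% higher in PBS, 15.3% and 18.2% in WT, 15.2% and 15.4% in H16R and 26.9% and 27.2% in 3x mice. Against PBS with isotype it was 26.2% lower and 26.0% higher in WT, 32.8% and 31.4% in H16R and 32.3% and 31.3% in 3x mice, and with block 13.7% and 21.9%, 33.8% and 32.7%, and 38.3% and 34.7%. At most 4 called genes per list and comparison could be named. A gene with no value given for a comparison may therefore have been called there too.

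Of 11 further MAPK phosphatase genes, 3 were lower and 0 higher with block in PBS mice, 4 lower and 2 higher in WT, 1 lower and 2 higher in H16R, and 3 lower and 5 higher in 3x mice. Their median log2 difference was -0.32, -0.08, -0.041 and 0.11, against medians of all tested genes between -0.007 and 0.011. Dusp14, which acts on kinases of the receptor pathway, fell with block in PBS (-1.00 ± 0.18), WT (-1.43 ± 0.18) and H16R mice (-0.68 ± 0.19), adjusted p = 0.000673, 1.96e-06 and 0.0117. It was also lower than PBS under isotype H16R (-1.18 ± 0.18) and 3x (-1.61 ± 0.19) and 1.49 ± 0.099 higher in Tregs than in Tcons. Dusp7, a cytoplasmic ERK phosphatase like Dusp6, went the other way: it rose with block in WT (0.29 ± 0.072), H16R (0.32 ± 0.072) and 3x mice (0.62 ± 0.071), adjusted p = 0.00358, 0.00265 and 9.07e-08. Of the 3 other Sprouty and Spred genes tested, Spred2 was lower than PBS in all 6 IL-2 comparisons (furthest from 0 in block WT, -0.26 ± 0.047) and Spry4 was -0.63 ± 0.11 in Tregs against Tcons.

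Upstream of the feedback genes, the Ras activators and the ERK cascade (16 genes) had 1 higher and 1 lower with block in PBS mice, 2 and 4 in WT, 3 and 1 in H16R and 7 and 3 in 3x mice, and in PBS mice both counts were near the share of all genes. With IL-2 the scaffold gene Ksr1 fell (-0.27 ± 0.053 in WT, -0.47 ± 0.054 in H16R and -0.56 ± 0.054 in 3x mice with isotype), with adjusted p = 0.000204, 2.18e-08 and 1.2e-09, while of the 16 genes 5, 6 and 6 were higher and 4, 4 and 4 lower in these comparisons. Under block 5, 8 and 9 were higher than PBS and 2, 5 and 5 lower. Of 5 RasGAP genes, 1, 3 and 2 were higher and 2, 2 and 1 lower than PBS in isotype WT, H16R and 3x mice, and under block 1, 1 and 1 were higher and 1, 2 and 4 lower. Rasa3 was among those that rose with isotype WT (0.32 ± 0.059), H16R (0.70 ± 0.059) and 3x (0.69 ± 0.059). Among 15 tested genes of the p38 and JNK cascade, 8 were higher and 1 lower in isotype WT than in PBS, 9 and 1 in H16R and 7 and 1 in 3x mice, and under block 4 and 1, 7 and 3, and 7 and 4. With block 5, 8, 7 and 7 were lower than with isotype and 1, 0, 2 and 3 higher in PBS, WT, H16R and 3x mice. Gadd45b, which activates the p38 pathway, fell with block in PBS (-0.47 ± 0.09), WT (-0.92 ± 0.089) and H16R mice (-0.31 ± 0.089), with adjusted p = 0.00102, 3.45e-08 and 0.0131.

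Of 13 tested immediate early genes, which respond to ERK, 7 were lower and 0 higher with block in PBS, 8 and 1 in WT, 6 and 0 in H16R and 8 and 3 in 3x mice, with median log2 differences of -0.32, -0.20, -0.23 and -0.36. Junb was lower in all 4 (-0.46 ± 0.066, -0.48 ± 0.066, -0.45 ± 0.066 and -0.58 ± 0.066), and Nr4a1, an antigen receptor reporter gene, in PBS (-0.75 ± 0.11), WT (-0.72 ± 0.11) and 3x mice (-0.76 ± 0.11). Against PBS, 3, 6 and 7 of the 13 were lower and 1, 3 and 1 higher in isotype WT, H16R and 3x mice, where 26.2%, 32.8% and 32.3% of all tested genes were lower, so that the WT count was near that share. Under block 2, 4 and 7 were lower than PBS and 5, 5 and 3 higher, with more higher than lower in WT and H16R mice. Egr1 was lower in isotype WT (-0.48 ± 0.096), H16R (-0.75 ± 0.097) and 3x mice (-1.01 ± 0.097). Of 10 genes that respond to cell handling and heat shock, 6, 4, 6 and 5 were lower and 0, 1, 0 and 0 higher with block in PBS, WT, H16R and 3x mice. Against PBS, 5, 8 and 8 of these 10 were lower and 1, 1 and 0 higher in isotype WT, H16R and 3x mice. With block 0, 8 and 9 were lower than PBS and 3, 1 and 1 higher, so that WT under block had higher and no lower calls. Hsp90aa1, a heat shock chaperone, was -0.38 ± 0.069 with block in PBS mice and -0.55 ± 0.069 in isotype H16R against PBS. Dusp1 belongs to the genes that handling can induce, and the part of handling in the members' values was not tested.

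Across the 32 Treg libraries the members fell into no single pattern. Dusp4 and Dusp10 were most alike (Pearson r of log2(CPM + 1) = 0.893, and 0.778 within groups), and Spry1 was alike to Dusp6 (0.811, but 0.107 within groups), Dusp1 (0.78 and 0.502) and Dusp10 (0.78 and 0.619), while Dusp5 had r = -0.102 with Spry1 (0.503 within groups). Outside the set, Dusp10 and Dusp4 shared Ets2 among their 3 most alike genes (r = 0.97 and 0.949). The nearest gene was Rgs2 for Dusp1 (0.946), Cd37 for Dusp2 (0.863), Snx18 for Dusp4 (0.966), Ubl3 for Dusp5 (0.948), Ccnl1 for Dusp6 (0.937) and Tgif1 for Spry1 (0.956). For Spry2 the 3 nearest were Klrk1 (0.907), Ncr1 (0.888) and Fcer1g (0.886), of which the first 2 are the NK cell markers above. Spred1 had no gene above r = 0.773 (Rrp1b). These are correlations over libraries that share 8 groups and are given as descriptions.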

How the data were processed

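RNA-seq was performed on 32 Treg and 16 Tcon libraries, each taken as 1 mouse, since the study's methods give 4 Treg mice per group. The authors aligned reads with OSA in Omicsoft Array Suite to mouse genome B38 and quantified genes with RSEM, and the submitters' notes also name DESeq2 1.30.1. The authors deposited expected counts per gene, which are not normalized, and FPKM, which are scaled to library size and length. Columns of the authors' own comparisons (fold changes and their significance) were not used.

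Expected counts were rounded and protein-coding genes (GENCODE annotation of GRCm38) above 0.5 CPM in at least 4 libraries were kept, which left 12392 genes in Tregs, 12526 in Tcons and 12844 for the comparison of both. CPM are TMM-scaled over all 48 libraries. edgeR 4.0.16 (R 4.3.3) quasi-likelihood tests used all 8 Treg groups in 1 model, an additive model of IL-2 and antibody in Tcons, and the mouse as a block between cell types. Tregs and Tcons of the same number come from the same mouse, and their deviations correlated at r = 0.214 to 0.615. Adjusted p-values follow Benjamini and Hochberg over all tested genes, with a threshold of 0.1. Errors are SE from the edgeR fit. The fits were tested on simulated data. Alternatives were DESeq2 1.42.0, limma 3.58.1 on log2(FPKM + 1), library totals, no filter, other models and leaving out libraries. Depth ran from 18279780 to 51953840 expected counts, and in Tregs Spry2 and Spred1 rest on the fewest counts.

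The members and the gene lists were chosen with earlier results of these data known. From each list at most 4 called genes with the smallest adjusted p per comparison could be named, and as alike genes the 3 with the highest r over 32 Treg libraries and a mean above 5 CPM. Spry3 was not matched, and Mapk13, Ier5 and Hba-a2 did not pass the filter in Tregs.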

Additional observations from a re-analysis of the deposited data

Results flagged for a closer look

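The 72 sets of 1 gene in 1 Treg group of 4 libraries were searched for a library far from the other 3, and 2 had one. The cut used is set to flag about 1 in 20 groups of normally distributed values, a rate that was not checked in these data. Dusp1 was 841.8 CPM in block H16R replicate 2, while the other 3 libraries lay between 911.4 and 924.1 CPM. Dusp2 was 220.2 CPM in block WT replicate 1, the Treg library with the most myeloid and the second most B cell marker RNA, while the other 3 lay between 185.5 and 189.0 CPM.

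Of 36 tests of whether an effect differed between 2 settings, 14 passed the threshold. Of all tested genes, 19.7% passed for WT between arms, 19.1% for H16R, 39.0% for 3x, and 37.0% for the gap between cell types. The 2 members called for H16R and the 3 called for the gap, of 9 each, were near these shares. The effect of WT against PBS differed between MHC II block and isotype by -0.364 for Dusp4, 0.433 for Dusp6 and 1.529 for Spry2 on the log2 scale. The effect of H16R differed by 0.273 for Dusp5 and 1.784 for Spry2. The effect of 3x differed by -0.419 for Dusp1, -0.504 for Dusp6, -0.562 for Dusp10, -0.267 for Spry1, 1.428 for Spry2 and 0.366 for Spred1. Dusp6 thus differed in opposite directions for WT and for 3x. The gap between Tregs and Tcons differed between IL-2 and PBS mice by 0.348 for Dusp2, 0.38 for Dusp4 and -0.708 for Spry2. These gap values average the antibody arms, which were unlike for Dusp4, as given above. Beside the Spry2 differences between arms, Klrk1 differed by 1.70 for WT, 2.00 for H16R and 1.64 for 3x, Ncr1 by 2.28, 2.61 and 2.64, and Klrb1c by 1.301 and 1.14, while for 3x Klrb1c was not called (0.42, adjusted p = 0.282 by edgeR). The part of NK cells was not tested.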

How the results depend on the processing

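Of 225 results of single members, 170 stayed on the same side of the threshold in every setting run, and 0 changed direction while called. Most counts of called members stayed within 1.5 times under every setting, and the exceptions follow, each with its cause not tested. For 3x against H16R with isotype (0 called), DESeq2 called 1, a fit to the 2 groups alone 3, and fits without 1 library 0 to 1. For 3x against H16R under block (3 called), a fit to the 2 groups alone and a fit without both libraries that stand apart each called 5, and fits without 1 library 3 to 5. The H16R difference between arms (2 called) gave 1 to 3 without 1 library. The gap between cell types in IL-2 minus PBS mice (3 called) gave 1 with library totals, 1 with limma on FPKM and 0 to 3 without 1 mouse. In Tcons, fits without 1 library gave 3 to 5 for WT (3 called), 2 to 6 for H16R (4 called) and 1 to 3 for 3x (2 called), and for 3x no filter gave 1, the replicate block 1 and 8 group means 4.

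Replicate numbers do not pair mice across Treg groups: same-numbered libraries correlated at a mean r of 0.014 (-0.498 to 0.685), other numbers at -0.004, and 9 of 32 libraries correlated best with their own number. With the number as a replicate block, 6 of 207 member results in Tregs or Tcons lost their call: isotype WT against PBS for Spred1 (adjusted p = 0.113), block 3x against PBS for Spry2 (0.107), isotype 3x and block H16R against WT for Spry2 (0.1 and 0.106), and in Tcons 3x for Dusp6 (0.102) and block for Spry1 (0.101). In addition 2 gained one, block against isotype in WT for Spred1 (0.091) and isotype 3x against WT for Dusp2 (0.0718). In Tregs, Spry2 and Spred1 rest on the fewest counts and have the lowest FPKM of the members.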
